A study of Mus musculus and Sus scrofa with 18 samples.

Results

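The 10 genes described here encode the MHC class II antigen presentation pathway of the mouse, and they were measured by RNA sequencing in the striatum of 9 mice. They were chosen by name as the chains of the class II molecules, their chaperones and their master regulator, out of 55357 genes in the mouse count table. All 10 were found in the table and all 10 passed the filter on low counts. Of these, 8 genes lie in the H2 region of chromosome 17 (H2-Aa, H2-Ab1, H2-Eb1, H2-DMa, H2-DMb1, H2-DMb2, H2-Oa and H2-Ob), Cd74 lies on chromosome 18 and Ciita on chromosome 16. In the WT mice H2-Oa had 5, 9 and 0 counts, H2-Ab1 6, 28 and 23 and H2-Ob 20, 12 and 8. These genes passed the filter only with the help of the HD mice, in which they were higher.

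Each group held 3 mice and each library came from 1 mouse. WT mice received AAV-Ctrl gRNA. The untreated group were HD 140Q-KI mice given AAV-CasRx/Ctrl gRNA, and the treated group were HD 140Q-KI mice given AAV-CasRx/HTT gRNAs. HD 140Q-KI mice are heterozygous knock-in mice in which the first exon of human HTT, with a lengthened CAG tract, replaces that of their own Htt. CasRx is an RNA-cutting CRISPR enzyme driven here by the ubiquitous CAG promoter, and all 3 groups received AAV9 in both striata at 6 months of age and were killed 1.5 months later. Because WT mice received no CasRx, the CasRx vector and the knock-in cannot be told apart in either comparison with WT.

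MHC class II molecules display peptides from engulfed proteins to CD4+ T cells. An alpha and a beta chain (H2-Aa with H2-Ab1, or H2-Ea with H2-Eb1) assemble on the invariant chain Cd74, which blocks the peptide groove until lysosomal proteases remove it. H2-DM then exchanges the last Cd74 fragment for a peptide, H2-DO restrains H2-DM, and the coactivator CIITA drives transcription of the whole set. In the healthy brain class II is scarce and found mainly on macrophages and dendritic cells at its borders, while microglia can acquire it, classically under interferon gamma.

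CIITA binds no DNA itself but docks on factors that sit on a short promoter module made of the W, X and Y boxes. RefSeq promoter windows (build GRCm38.p6, from 250 bases before to 50 bases after a start) were at hand for 7 of the 10 members, H2-Aa, H2-Eb1, H2-DMa, H2-DMb1, H2-DMb2, H2-Oa and H2-Ob. In 6 of them the letters AAC, which occur within the X box, stood 25 to 28 bases before ATTGG, the Y box that the factor NF-Y binds. The stretches are printed in the direction of the gene with these letters in capitals, because they are the element that the members share in sequence.
H2-Aa, chr17:34287857-34287914, minus strand: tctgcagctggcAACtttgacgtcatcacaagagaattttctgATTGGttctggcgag
H2-Eb1, chr17:34305766-34305822, plus strand: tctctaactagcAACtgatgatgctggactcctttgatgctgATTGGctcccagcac
H2-DMb1, chr17:34153087-34153144, plus strand: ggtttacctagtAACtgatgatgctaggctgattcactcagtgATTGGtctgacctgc
H2-DMb2, chr17:34145116-34145173, plus strand: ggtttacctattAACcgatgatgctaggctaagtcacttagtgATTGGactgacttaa
H2-Oa, chr17:34092293-34092350, plus strand: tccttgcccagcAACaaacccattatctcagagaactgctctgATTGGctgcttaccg
H2-Ob, chr17:34238808-34238862, plus strand: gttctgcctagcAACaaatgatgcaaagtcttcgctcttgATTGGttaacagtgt
The spacing was set from the members' own windows, and both strands were searched (GTT and CCAAT are the same letters on the other strand). Of all 32851 promoter windows of the same length, 817 (2.49%) held the pair, while 37.4% held ATTGG alone. Neither of the H2-DMa windows held the pair, and 1 of them held ATTGG.

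Total counts per library ranged from 27184356 to 32102121, and 19463 genes were tested. Values per mouse are given as CPM, counts scaled to the TMM-adjusted library size, in the order of replicates 1, 2 and 3. Reads are taken as 3′-end reads, which the paper's methods do not mention, and whether counts scale with transcript length was not tested. Levels are therefore compared between mice rather than between genes. Htt, the gene targeted by the HTT gRNAs, ranged from 182 to 191 CPM in WT, from 140 to 150 in untreated and from 130 to 140 in treated mice, and it did not pass the test between treated and untreated mice (log2 fold change -0.10 ± 0.06 (SE), adjusted p = 0.942, edgeR). Where CasRx cut the transcript relative to the part that was counted was not tested. Transcripts of 4 genes of the Y chromosome (Uty, Kdm5d, Ddx3y and Eif2s3y) were counted 3435 to 5005 times in 4 libraries, those of the 3 WT mice and untreated mouse 1, and 0 times in the other 5, so that HD mice and WT mice also differed in Y-linked transcripts. The study's methods describe equal numbers of male and female animals, which these counts do not show for the sequenced mice, and whether the labels of any library are wrong was not tested.

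In WT striatum the class II transcripts were counted rarely, at 0 to 73 counts per library for 9 of the members and 341 to 401 for H2-DMa. The summed level of the 10 members was 21.6, 25.5 and 23.4 CPM in the WT mice. Transcripts of the H2-DM chains made up 63.6% to 69.7% of these counts, and those of Cd74 and the H2-Aa, H2-Ab1 and H2-Eb1 chains 13.1% to 24.3%. In the 6 HD mice the order was turned: Cd74 and the 3 chains made up 64.1% to 94.0% of the member counts and the H2-DM chains 4.12% to 28.8%. The summed level was 45.3, 118 and 1478 CPM in untreated mice and 81.0, 190 and 521 CPM in treated mice. The HD mice thus all lay above the WT mice, and they differed widely among themselves. In bulk striatum, more cells that express these genes and more RNA per cell cannot be told apart.

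The first question was whether the pathway differed between untreated HD mice and WT mice. A gene was called a DEG where the unadjusted P was under 0.05 and the change at least 2-fold, and 7 of the 10 members were DEGs, all higher in untreated mice. Over all tested genes 5.57% were DEGs in this direction. That share is no fair measure for H2-Ab1, H2-Oa and H2-Ob, which passed the filter through the HD mice. An adjusted p under 0.05 in the same direction was reached by 4 members (H2-Aa, H2-Ab1, H2-Eb1 and Cd74), against 4.58% of all tested genes. None of these 4 stayed under 0.05 without WT mouse 1, 2 or 3 (Cd74 the lowest, at 0.0552, 0.0925 and 0.0683, edgeR). The median log2 fold change of the members was 3.10, beside 0.02 over all tested genes.

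Cd74, the invariant chain, had the largest rise of the 10 members. It was at 1.28, 2.57 and 2.26 CPM in WT mice, at 15.6, 54.1 and 747 in untreated mice and at 32.9, 90.5 and 264 in treated mice. All 3 untreated mice were above all 3 WT mice, and untreated mouse 3 alone held most of the group's signal. Between untreated and WT mice the log2 fold change was 7.05 ± 1.59 (SE), a 133-fold rise with an adjusted p of 0.0253 (edgeR). The means were 272 ± 411 and 2.04 ± 0.671 CPM (SD, n = 3 each).

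The chains that hold the peptide followed the same order of mice. H2-Aa, the A alpha chain, was at 0.604, 0.954 and 0.864 CPM in WT mice, at 4.95, 16.4 and 229 in untreated mice and at 9.65, 26.9 and 78.1 in treated mice. H2-Ab1, the A beta chain, was at 0.227, 1.03 and 0.764 CPM in WT mice, at 4.84, 14.5 and 210 in untreated mice and at 8.79, 22.0 and 71.5 in treated mice. H2-Eb1, the E beta chain, was at 0.718, 1.65 and 1.23 CPM in WT mice, at 3.61, 12.4 and 205 in untreated mice and at 7.23, 21.8 and 65.2 in treated mice. For none of the 3 chains did any HD mouse overlap a WT mouse. Between untreated and WT mice H2-Aa rose by 6.68 ± 1.59 on the log2 scale (SE, adjusted p = 0.0307), H2-Ab1 by 6.81 ± 1.63 (adjusted p = 0.0315) and H2-Eb1 by 5.93 ± 1.57 (adjusted p = 0.0430).

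The E alpha chain, the partner of H2-Eb1, was not counted: H2-Ea-ps, as the annotation names it, had 0 counts in all 9 libraries, which allows up to 0.0919 to 0.113 CPM (3 counts of a library, counting error only). C57BL/6 J mice, the strain of the wild-type female breeders, are known to lack a transcribed E alpha gene. H2-Eb2, a second beta chain gene, had 0 counts in the WT mice, 0, 0 and 52 counts in untreated mice and 5, 9 and 9 in treated mice, and it did not pass the filter on low counts.

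**Figure D1:**
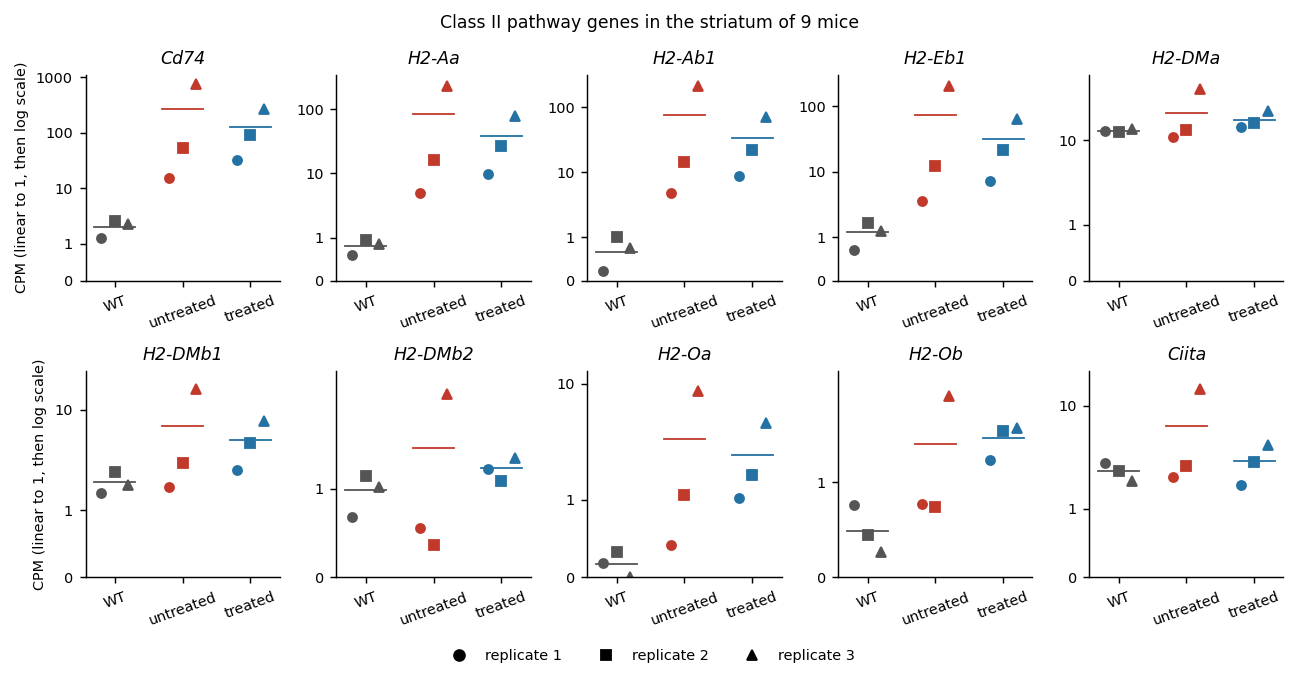
CPM of each of the 10 members (vertical axis, linear up to 1 and logarithmic above) in WT, untreated and treated mice; each symbol is 1 mouse, its shape gives the replicate number, and the bar is the group mean. Untreated mouse 3 is the highest and treated mouse 3 the next highest HD mouse in all 10 panels, and the WT mice lie below all HD mice for Cd74, H2-Aa, H2-Ab1, H2-Eb1 and H2-Oa.

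Among the chaperones of peptide loading, the H2-DO chains rose and the H2-DM chains mostly did not pass the test. H2-Oa, the DO alpha chain, was at 0.189, 0.330 and 0 CPM in WT mice, at 0.421, 1.11 and 8.60 in untreated mice and at 1.04, 1.65 and 4.62 in treated mice. H2-Ob, the DO beta chain, was at 0.756, 0.440 and 0.266 CPM in WT mice, at 0.772, 0.739 and 4.01 in untreated mice and at 1.44, 2.27 and 2.39 in treated mice. Every HD mouse was above every WT mouse for H2-Oa, whereas for H2-Ob untreated mouse 2 lay within the range of WT mice. Between untreated and WT mice H2-Oa rose by 4.28 ± 1.29 on the log2 scale (SE, adjusted p = 0.0638) and H2-Ob by 1.92 ± 0.69 (adjusted p = 0.105). B cells are the classical site of H2-DO.

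H2-DMa, the DM alpha chain, had the smallest spread of the 10 members in WT mice relative to its mean (12.9 ± 0.389 CPM, SD, n = 3). It was at 12.9, 12.6 and 13.3 CPM in WT mice, at 10.7, 13 and 39.7 in untreated mice and at 14.3, 16.1 and 22.0 in treated mice. H2-DMb1, a DM beta chain, was at 1.47, 2.42 and 1.79 CPM in WT mice, at 1.72, 2.92 and 16.1 in untreated mice and at 2.48, 4.65 and 7.72 in treated mice. H2-DMb2, the other DM beta chain, was at 0.680, 1.25 and 1.03 CPM in WT mice, at 0.561, 0.369 and 5.13 in untreated mice and at 1.41, 1.15 and 1.71 in treated mice. Untreated mouse 3 stood far above the WT range for all 3 genes, whereas untreated mice 1 and 2 were both below it for H2-DMb2 and 1 of them was within it for each of the other 2 chains. H2-DMb1 was a DEG between untreated and WT mice (log2 fold change 1.86 ± 0.77, adjusted p = 0.143), while H2-DMb2 (1.03 ± 0.82, adjusted p = 0.450) and H2-DMa (0.71 ± 0.42, adjusted p = 0.303) were not.

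The 3′ ends of H2-DMb1 and H2-DMb2 are alike, with 130 identical bases over the 152 aligned in the last 300 bases of their longest coding transcripts (85.5%, GENCODE M21), so that their counts may not be fully separate. In RefSeq, H2-DMa overlaps Brd2, H2-Oa overlaps BC051537, Cd74 overlaps Mir5107 and Ciita overlaps Dexi and LOC115488669, and whether the counting used strand is not given in the sources used here.

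Ciita, the coactivator that controls the other members, was at 2.76, 2.31 and 1.86 CPM in WT mice, at 2.03, 2.59 and 14.5 in untreated mice and at 1.69, 2.83 and 4.17 in treated mice. Both HD groups overlapped the WT mice, and only untreated mouse 3 and, by less, treated mice 2 and 3 were above all WT mice. The log2 fold change between untreated and WT mice was 1.46 ± 0.69 (SE, adjusted p = 0.194) and that between treated and WT mice 0.33 ± 0.69 (adjusted p = 0.827), and neither was a DEG.

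Between untreated and WT mice 5 members did not overlap (H2-Aa, H2-Ab1, H2-Eb1, H2-Oa and Cd74), all higher in untreated mice, against 15.0% of all tested genes. With 3 mice against 3 the exact permutation test cannot go below p = 0.1, which these 5 genes reached. The size of the difference rested on untreated mouse 3. Without it Cd74 was at a log2 fold change of 4.09, H2-Aa of 3.72, H2-Ab1 of 3.83 and H2-Eb1 of 2.73, and these 4 remained DEGs, against 3.70% of all tested genes higher in that fit, while H2-Oa (2.15), H2-Ob (0.64) and H2-DMb1 (0.29) were no longer DEGs and H2-DMb2 turned to a DEG lower in untreated mice (-1.08). H2-DMb1 was also no DEG without any 1 of the WT mice, and H2-Ob without WT mouse 2 or WT mouse 3. Without untreated mouse 1, H2-DMa (1.02) and Ciita (1.87) became DEGs, the latter also without untreated mouse 2 (1.83).

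Y-linked transcripts bear on this comparison too. Untreated mouse 1, the only HD mouse with them, was above the 3 WT mice, which all had them, for H2-Aa, H2-Ab1, H2-Eb1, H2-Oa and Cd74. Among these 4 libraries its log2 difference from the WT mice was 2.95 for Cd74, 2.85 for H2-Ab1, 2.62 for H2-Aa and 1.60 for H2-Eb1. These are values of 1 HD mouse, the lowest HD mouse for 7 of the 10 members, and are given with no test. A fit with the presence of Y-linked transcripts as a covariate rests on the same mouse, since only the untreated group holds libraries with and without them, and is no adjustment of the comparison over 9 mice.

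The comparison of treated HD mice with WT mice asked what remained after the HTT gRNAs. Here 6 members were DEGs, all higher in treated mice, against 3.84% of all tested genes in this direction. The same limit of the filter holds for H2-Ab1, H2-Oa and H2-Ob. In the fit of all groups none of the 10 members had an adjusted p under 0.05, against 0.904% of all tested genes higher in treated mice. This depended on the fit. With only the 2 groups compared fitted, the 6 DEGs had adjusted p from 0.00846 (Cd74) to 0.0447 (H2-Oa, edgeR). The share over all tested genes in that fit is not reported here. Fitted in that way, no member was under 0.05 between untreated and WT mice (Cd74 the lowest, at 0.0527), so that these calls do not rank the HD groups. The median log2 fold change of the members was 2.94, beside 0.00 over all tested genes. The 6 DEGs were Cd74 (5.98 ± 1.54 (SE), adjusted p = 0.0657), H2-Ab1 (5.64 ± 1.59, 0.0836), H2-Aa (5.55 ± 1.55, 0.0814), H2-Eb1 (4.70 ± 1.52, 0.118), H2-Oa (3.81 ± 1.29, 0.130) and H2-Ob (2.06 ± 0.69, 0.128).

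The treated mice were less spread than the untreated mice, and 8 members did not overlap WT mice, against 13.4% of all tested genes. These were the 6 DEGs with H2-DMa and H2-DMb1. H2-DMb1 (log2 fold change 1.38, adjusted p = 0.334), H2-DMb2 (0.53, 0.760) and H2-DMa (0.43, 0.599) were not DEGs. H2-Oa was no DEG without treated mouse 3 (2.96) and H2-Ob without WT mouse 3 (1.77). No treated mouse had Y-linked transcripts and every WT mouse did, so that the presence of Y-linked transcripts and the group cannot be told apart in this comparison.

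**Figure D2:**
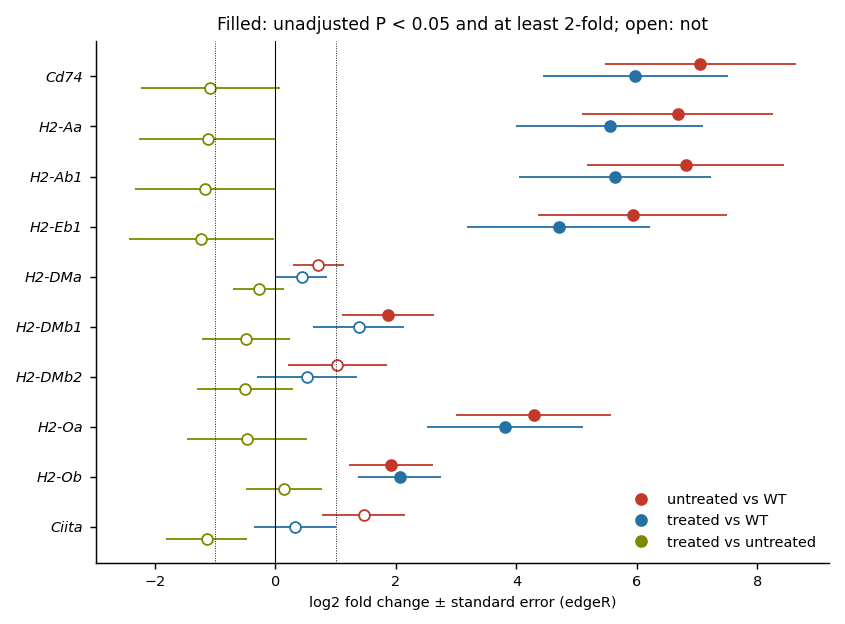
Log2 fold change of each member with its standard error from edgeR (horizontal axis) for untreated against WT, treated against WT and treated against untreated mice; filled points are DEGs, dotted lines mark a 2-fold change. Points for Cd74 and the H2-Aa, H2-Ab1 and H2-Eb1 chains lie between 4.70 and 7.05 against WT, and those for treated against untreated mice lie between -1.23 and 0.14 and are all open.

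Treated and untreated mice both carried the knock-in allele and CasRx, and differed in the gRNAs. No member was a DEG between them, against 0.771% of all tested genes in either direction, and 0 of the 10 had an unadjusted P under 0.05 in edgeR. DESeq2 called none either, but it gave no p-value for H2-DMb2, which it could therefore not call. The log2 fold change was below 0 for 9 members and above 0 for H2-Ob (0.14 ± 0.63 (SE)), with a median of -0.79 beside -0.01 over all tested genes. It was -1.08 ± 1.15 for Cd74, -1.12 ± 1.14 for H2-Aa, -1.17 ± 1.16 for H2-Ab1 and -1.23 ± 1.20 for H2-Eb1 (adjusted p = 0.995 for each). For Ciita it was -1.14 ± 0.67 (adjusted p = 0.931).

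The groups overlapped for all 10 members. The sign of this comparison was set by untreated mouse 3, the highest of the 6 HD mice for 10 of the 10 members, with treated mouse 3 next for all 10. Without untreated mouse 3 the log2 fold change was above 0 for all 10 members, with a median of 1.63, and 6 of them (H2-Aa, H2-Eb1, H2-DMb1, H2-DMb2, H2-Ob and Cd74) were DEGs higher in treated mice, against 0.928% of all tested genes in that fit, with adjusted p from 0.789 to 0.801. With both HD mice numbered 3 left out the median was 0.79, and H2-DMb2 (1.45) and H2-Ob (1.29) were DEGs higher in treated mice, against 0.656% of all tested genes. Without untreated mouse 1, Ciita was a DEG lower in treated mice (-1.55). Among the 5 mice without Y-linked transcripts, 2 untreated and 3 treated, no member was a DEG and the median was -1.26.

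**Figure D3:**
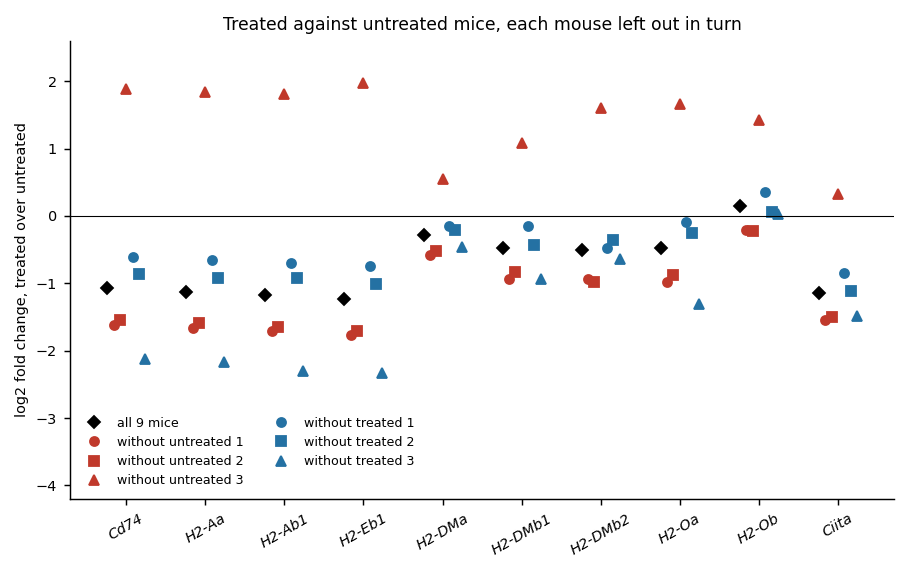
Log2 fold change of each member between treated and untreated mice (vertical axis) with all 9 mice (black diamonds) and with each untreated (red) or treated (blue) mouse left out in turn. All 10 red triangles, which leave out untreated mouse 3, are above 0, whereas with all mice 9 of the 10 diamonds are below 0.

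The spread among HD mice was not equal across the pathway. The highest HD mouse exceeded the lowest 56.6-fold for H2-Eb1, 47.8-fold for Cd74, 46.2-fold for H2-Aa and 43.4-fold for H2-Ab1. It did so 20.4-fold for H2-Oa, 13.9-fold for H2-DMb2, 9.37-fold for H2-DMb1, 8.61-fold for Ciita, 5.43-fold for H2-Ob and 3.70-fold for H2-DMa.

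Across the HD mice Cd74 and the peptide-holding chains moved in near fixed proportion. In the 6 HD mice H2-Aa stood at 29.4% to 31.7% of the Cd74 counts, H2-Ab1 at 24.3% to 31.0% and H2-Eb1 at 22.0% to 27.4%. The SD over these mice was 2.03 for the log2 CPM of H2-Aa and 0.040 for its log2 ratio to Cd74. H2-Aa was counted 1.02 to 1.22 times as often as H2-Ab1 in HD mice and 0.929 to 2.67 times as often in WT mice. The chains stood higher relative to Cd74 in WT mice for H2-Eb1 (54.4% to 64.3%) and H2-Aa (37.1% to 47.1%), while H2-Ab1 (17.6% to 40.0%) spanned the HD range. H2-DMa ranged from 5.31% to 68.8% of the Cd74 counts in HD mice, and Ciita from 1.58% to 13%. In WT mice H2-DMa stood at 489% to 1003% of Cd74 and Ciita at 82.4% to 215%, with few Cd74 counts (34 to 70 per library) behind the ratio. These ratios share Cd74 as denominator, are taken within a library and are given as a description.

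**Figure D4:**
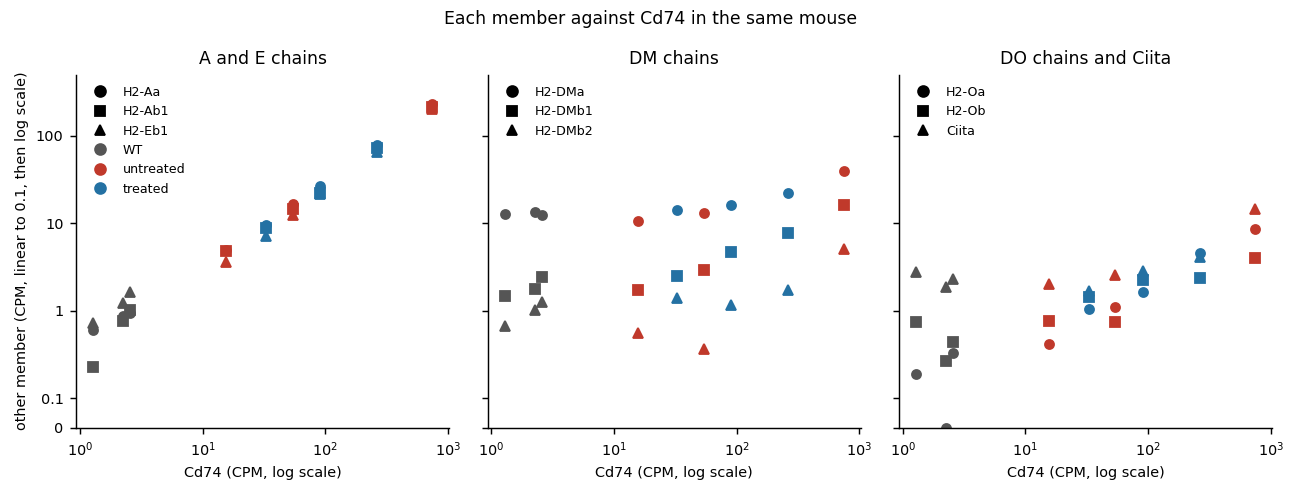
CPM of the other 9 members (vertical axis, linear up to 0.1 and logarithmic above) against CPM of Cd74 (horizontal axis, logarithmic) in the same mouse, coloured by group, with 1 symbol for each gene in a panel. The A and E chains climb with Cd74 across the HD mice, with H2-Aa at 29.4% to 31.7% of it, while H2-DMa spans 3.70-fold where Cd74 spans 47.8-fold.

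The genes of the H2 region between the members include the loading machinery of MHC class I. Of 6 other genes that RefSeq places between the first and the last of the 8 members on chromosome 17, 5 were tested and 4 were DEGs higher in untreated than in WT mice. Psmb8 and Psmb9, subunits of the immunoproteasome, rose by 3.97 ± 0.88 (adjusted p = 0.0241) and 3.72 ± 1.00 (adjusted p = 0.0442) on the log2 scale, and Tap1, part of the peptide transporter, by 3.95 ± 0.98 (adjusted p = 0.0351). The fourth was Tap2, the partner of Tap1 (2.08 ± 0.61, adjusted p = 0.0581), named after its values were seen. Brd2, a chromatin reader of the same stretch that overlaps H2-DMa, was at 0.02 ± 0.07 (adjusted p = 0.864). The class I list as a whole had 9 of 9 DEGs higher in untreated mice and 9 of 9 in treated mice, among them H2-D1 (log2 fold change 3.33 against WT in untreated mice), B2m (3.09) and Nlrc5 (4.71), the class I counterpart of Ciita. For these genes and the lists that follow, higher DEGs made up 5.57% of all tested genes in untreated and 3.84% in treated mice. In the lists, genes with no counts in WT mice passed the filter through the HD mice and could be called only as higher.

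Upstream of the members stand the DNA-binding factors of the module. None of the 7 class II transcription factor genes was a DEG in either comparison with WT. Rfx5 was 0.50 ± 0.10 higher in untreated mice on the log2 scale (adjusted p = 0.0156), and its partners Rfxap (0.03) and Rfxank (0.06) had adjusted p of 0.905 and 0.780. Nfyb, a subunit of NF-Y, was 0.44 ± 0.15 higher in untreated mice (adjusted p = 0.0961) and 0.38 ± 0.15 higher in treated mice (adjusted p = 0.190), under 2-fold in both. Of 8 tested genes of interferon gamma signalling, which induces Ciita, 4 were DEGs higher in untreated mice and 3 in treated mice. Irf1, a transcription factor of this response, rose by 2.44 ± 0.76 in untreated mice (adjusted p = 0.0711). Socs1, in both HD groups, and Irf8, in untreated mice, were among the other DEGs and were named after their values were seen. Ifng itself was not tested, with 0 counts in the WT mice, 0, 4 and 20 in untreated mice and 3, 2 and 3 in treated mice.

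Downstream, 3 of 11 genes of lysosomal processing were DEGs, higher in each HD group. Ctss, the protease that removes most of Cd74 in antigen-presenting cells, was at 60.4, 56.9 and 50.1 CPM in WT mice, 86.6, 122 and 408 in untreated mice and 136, 187 and 229 in treated mice. It rose by 1.88 ± 0.50 in untreated mice (adjusted p = 0.0424) and by 1.72 ± 0.49 in treated mice (adjusted p = 0.0880). Ifi30, a lysosomal thiol reductase, was at 1.28 ± 0.64 (adjusted p = 0.222) and Lgmn, an asparaginyl protease, at 0.51 ± 0.19 (adjusted p = 0.120), and neither was a DEG. The other DEGs of the list, named after their values were seen, were the proteases Ctsh (1.11 ± 0.41, adjusted p = 0.112) and Ctse, which had 0 counts in the WT mice, 0, 8 and 14 in untreated mice and 5, 12 and 11 in treated mice. Of 4 genes of class II turnover 1 was a DEG in untreated mice, Cd83, which shields class II from the ligase Marchf1 (1.18 ± 0.28, adjusted p = 0.0305). Marchf1 was at 0.58 ± 0.12 (adjusted p = 0.0177), under 2-fold, and Sppl2a, a protease for the last Cd74 fragment, at 0.09 ± 0.16 (adjusted p = 0.777). Of 5 costimulation genes 3 were DEGs in untreated mice and 2 in treated mice, with Cd86 at 1.86 ± 0.48 (adjusted p = 0.0390), Cd274 at 3.94 ± 1.12 (adjusted p = 0.0538) and Icosl at 0.90 ± 0.23 (adjusted p = 0.0366), the last under 2-fold. The third DEG was Cd40 (2.24, adjusted p = 0.140), named after its values were seen.

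On the side of the T cell, 6 of 7 tested genes of class II recognition were DEGs higher in both HD groups than in WT mice. Several of them, Cd3g and Cd3e among them, were scarcely counted in WT mice and passed the filter through the HD mice. The share over all tested genes is no fair measure for them. Cd3g, a chain of the T cell receptor complex, had 0 counts in all WT mice, 11, 34 and 333 in untreated mice and 27, 41 and 58 in treated mice. Cd3e, another chain, had 0, 0 and 2 counts in WT mice, 10, 16 and 265 in untreated mice and 19, 47 and 83 in treated mice. Cd4, the coreceptor for class II, went the other way. It was at 62.6, 79.8 and 73.5 CPM in WT mice, 18.2, 21.8 and 14.5 in untreated mice and 32.5, 31.6 and 31.5 in treated mice, with no overlap between groups. Cd4 fell by 1.99 on the log2 scale in untreated mice (adjusted p = 0.000239) and by 1.18 in treated mice (adjusted p = 0.00389), while Cd8a, the class I coreceptor, was counted 0, 0 and 4 times in WT mice, 33, 82 and 561 times in untreated mice and 26, 40 and 141 times in treated mice. Striatal projection neuron markers fell beside Cd4 (7 of 8 in untreated and 6 of 8 in treated mice were lower DEGs, with Adora2a at -2.13, Ppp1r1b at -1.90 and Rgs9 at -1.79 in untreated mice), and their part in the level of Cd4 was not tested. For this list and the choroid plexus markers below, the share of lower DEGs over all tested genes is not reported here.

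Marker lists of cells that can carry class II differed in how they moved beside the members, and their part in the class II levels was not tested. Against WT the median log2 fold change of border-associated macrophage markers was -0.32 in untreated and -0.11 in treated mice. For microglia, dendritic cell, monocyte and B cell markers it was above 0 in both. Of 10 microglia markers 3 were DEGs higher in each HD group, and their summed level was 370 to 404 CPM in WT, 444 to 1038 in untreated and 552 to 700 in treated mice. C1qa, a complement component, rose by 1.90 ± 0.52 in untreated mice (adjusted p = 0.0489) and Trem2, a lipid receptor, by 1.06 ± 0.30 (adjusted p = 0.0509). The third DEG was Aif1 (1.45, adjusted p = 0.0958), named after its values were seen. Fcrls, also named after its values were seen, went the other way in untreated mice (-0.29 ± 0.14, adjusted p = 0.195). In treated mice Fcrls was at 0.03. No other microglia marker was below 0 in untreated mice. Of 6 tested markers of border-associated macrophages, 1 was a DEG higher in untreated mice and none in treated mice, with summed levels of 7.97 to 9.32, 4.67 to 12.3 and 8.33 to 9.72 CPM in the 3 groups. Ms4a7 rose by 3.03 ± 0.99 in untreated mice (adjusted p = 0.0817), whereas Cd163, a scavenger receptor, was at -0.85 ± 0.18 (adjusted p = 0.0201), under 2-fold, and Lyve1 at -1.41 ± 0.74 (adjusted p = 0.243).

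Among 5 tested dendritic cell markers the 1 DEG in each HD group was Itgax, the integrin CD11c, which microglia can also express. It was at 0.340, 0.147 and 0.432 CPM in WT mice, 1.72, 3.32 and 17.5 in untreated mice and 3.46, 6.42 and 9.04 in treated mice (log2 fold change 4.59 and 4.33, adjusted p = 0.0176 and 0.0375). Flt3 (0.68 ± 0.27, adjusted p = 0.135) and Siglech (0.38 ± 0.14, adjusted p = 0.11) were not DEGs in untreated mice. The other 2 tested markers, named after their values were seen, were Clec9a (0.81 ± 0.62, adjusted p = 0.424) and Zbtb46. Zbtb46 went the other way, at -0.13 ± 0.15 in untreated (adjusted p = 0.593) and -0.18 ± 0.15 in treated mice (adjusted p = 0.516), and neither gene was a DEG. The summed dendritic cell level was 27.2 to 31.8 CPM in WT, 35.3 to 61.2 in untreated and 38.2 to 44.0 in treated mice. Siglech alone had means of 11.8, 15.4 and 18.0 CPM in these groups. Of 4 tested monocyte markers 2 were DEGs in each HD group, Ly6c2 (4.38 ± 0.95, adjusted p = 0.0228 in untreated mice) and Plac8 (0, 0 and 2 counts in WT mice, 2, 8 and 105 in untreated mice), with Ccr2 at 2, 2 and 6 counts in WT mice and 2, 3 and 71 in untreated mice. The summed monocyte level was 0.798 to 1.69 CPM in WT, 2.25 to 22.3 in untreated and 5.49 to 12.2 in treated mice.

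B and T cell markers were sparse. Of 7 B cell markers 3 were tested and 2 were DEGs in each HD group, at summed levels of 0.598 to 1.44 CPM in WT, 1.47 to 4.31 in untreated and 3.10 to 4.22 in treated mice. Cr2, a complement receptor, was at 1.56 ± 0.55 in untreated mice (adjusted p = 0.10), Cd79a, a chain of the B cell receptor complex, at 1.34 ± 0.53 (adjusted p = 0.128) and its partner Cd79b at 1.70 ± 0.89 (adjusted p = 0.240), of which the first 2 were DEGs. In treated mice the DEGs were Cd79a and Cd79b. Of 8 T cell markers 7 were higher and 1, Cd4, lower in untreated mice as DEGs, and 4 higher and 1 lower in treated mice, and the summed level including Cd4 was 64.3 to 81.6 CPM in WT, 22.7 to 81.9 in untreated and 38.5 to 48.8 in treated mice. Among the higher ones Cd3e, Cd3g and Cd8a were scarcely counted in WT mice and passed the filter through the HD mice. Choroid plexus markers, a sign of how the tissue was cut, were lower in untreated than in WT mice as DEGs for 6 of 6 genes, with Clic6 at -2.50, Kl at -3.56 and Folr1 at -3.57, and none was a DEG in treated mice. Their summed level was 65.4 to 3753 CPM in WT, 36.2 to 185 in untreated and 38.3 to 1262 in treated mice.

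**Figure D5:**
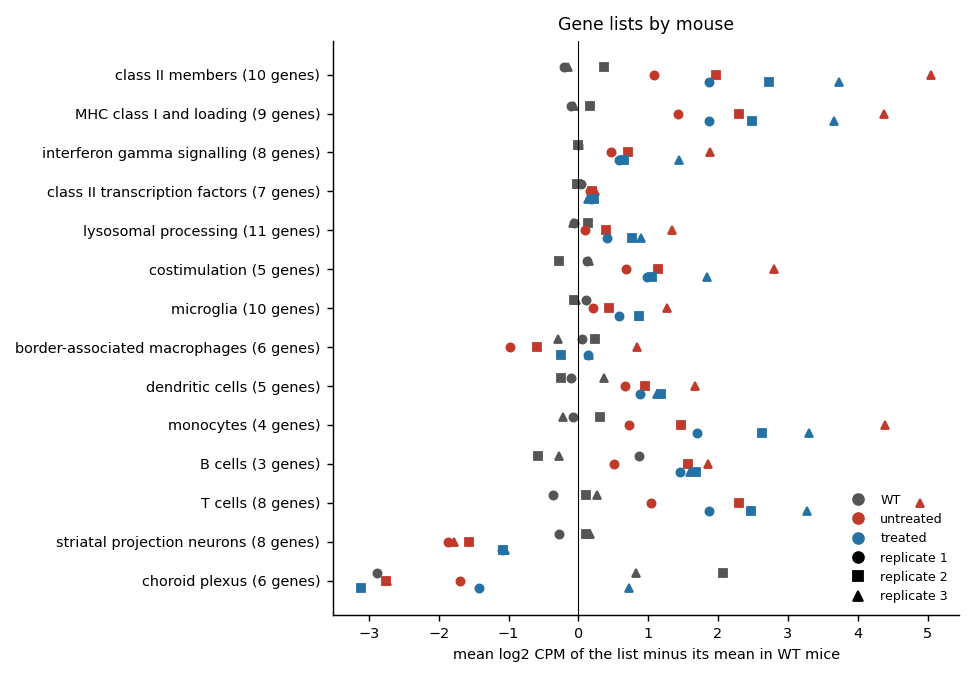
Mean log2 CPM of the tested genes of each list in each mouse, less the mean over the WT mice (horizontal axis), with colour for the group and shape for the replicate number. For the 10 class II members untreated mouse 3 is at 5.05 and treated mouse 3 at 3.74. Untreated mouse 3 is also the highest mouse for every other list shown except the striatal projection neuron and choroid plexus markers. This includes border-associated macrophages, where it is at 0.84.

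Some genes outside the pathway varied among the HD mice in nearly the same way. Over the 6 HD mice the Pearson correlation of log2 CPM with the mean of the 10 members was above 0.99 for 38 of 19453 genes and above 0.95 for 401. The 8 genes with the highest values were Irf8 (0.999), Mob1a (0.999), Pld4 (0.998), Serping1 (0.998), Ncf4 (0.996), Vwa5a (0.996), Srgn (0.996) and Tnfrsf1a (0.996). Among the members themselves it ran from 0.870 for H2-DMb2 and 0.910 for H2-Ob to 0.999 for H2-DMb1, each of which is part of the mean. The 6 points come from 2 groups and each shares its library, and untreated mouse 3 lies far from the others.

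The genes most like the members differed in how far they moved. Irf8, a transcription factor of myeloid cells, was at 8.69, 9.29 and 7.91 CPM in WT mice, 7.82, 11.8 and 43.8 in untreated mice and 11.2, 16.5 and 23.7 in treated mice. Serping1, the C1 inhibitor of complement, was at 2.30, 2.79 and 2.83 CPM in WT mice, 3.58, 5.94 and 52.2 in untreated mice and 5.27, 9.55 and 22.1 in treated mice. Mob1a, an adaptor of the Hippo pathway, spanned only 28.8 to 48.7 CPM over the HD mice, against 30.9 to 33.4 in WT mice. These genes were highest in untreated mouse 3 and next highest in treated mouse 3. They were chosen for likeness to the members, so that this order follows from the choice.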

How the data were processed

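RNA from the striatum of 9 mice was sequenced from its 3′ ends after oligo-dT priming, and the authors deposited raw counts per Ensembl gene, without normalization. The paper's methods do not mention 3′-end sequencing. The study's methods name STAR for alignment and quantification, whereas the submitters' processing notes list Trimmomatic 0.39, HISAT2 2.2.1 and featureCounts 2.0.1; the mouse build is not given in the sources used here. Pig libraries were not used here.

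The tests were run with edgeR 4.0.16 in R 4.3.3 (filterByExpr, TMM, glmQLFit and glmQLFTest on all 9 mice, 6 residual degrees of freedom). DEGs changed at least 2-fold with an unadjusted P under 0.05, and Benjamini-Hochberg adjusted p-values cover all tested genes. The standard error is the log2 fold change divided by the root of F. Log2 CPM used a prior count of 2. The steps were tested on simulated data. Gene names came from GENCODE M21 and promoters from RefSeq.

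The members and lists were chosen with earlier results of these data known. All members and 11 set genes were named, with the 3 genes of smallest P in untreated against WT mice from each other list and from the H2 region, and the 8 genes most like the members. Some genes under this rule are not reported here. Alternatives were library size scaling, DESeq2 1.42.0, other filters and thresholds, fits of 2 groups, a replicate block, a Y-linked covariate and each mouse left out. Both HD mice numbered 3 left out, and fits by presence of Y-linked transcripts, were added after seeing the data.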

Additional observations from a re-analysis of the deposited data

How the results depend on the processing

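Scaling without TMM factors, DESeq2, no filter on low counts and fits of only 2 groups left the number of DEGs among the members within 1.5 times and reversed none of the 10 members in any comparison. The adjusted p moved more. No member was under 0.05 between untreated and WT mice with no filter on low counts (Cd74 the lowest, at 0.0511). The same held in the fit of only these 2 groups (Cd74 at 0.0527), whereas in DESeq2 Cd74 was at 2.92e-06. For treated against WT mice Cd74 was at 0.00846 with only the 2 groups compared fitted. It was at 0.000191 in DESeq2 and at 0.0156 with the replicate number as a block. It stayed over 0.05 without TMM factors (0.0699), with no filter on low counts (0.125) and with at least 10 counts in every library (0.0582). Between untreated and WT mice the number called was 4 at an adjusted p under 0.05 (4.58% of all tested genes higher). It was 4 with at least 10 counts in every library (3.49%), a filter under which H2-Ab1, H2-Oa and H2-Ob were not tested and 7 members were. With the Y-linked covariate it was 0 (2.64%), and the median log2 fold change was 0.98. The libraries with Y-linked transcripts hold only 1 untreated mouse, so that their median (0.99) is given as an effect size without calls. The median was 1.40 without both HD mice numbered 3 and 1.40 to 3.62 with each mouse left out. Reversed there were H2-DMa (-0.27), H2-DMb1 (-0.14), H2-DMb2 (-0.81) and Ciita (-0.18) with the covariate, the same 4 genes in the libraries with Y-linked transcripts (-0.25, -0.13, -0.79 and -0.17), and H2-DMa (-0.12) and H2-DMb2 (-1.08) without both HD mice numbered 3. With each mouse left out, H2-DMa ranged from -0.12 to 1.02 and H2-DMb2 from -1.08 to 1.51. Between treated and WT mice the number called was 0 at an adjusted p under 0.05 (0.904% of all tested genes higher). It was 3 at an unadjusted P under 0.01, for which the share over all tested genes is not reported here. With at least 10 counts in every library it was 3 (2.05%), and the median of the 7 tested members was 1.40. With the covariate it was 0 (1.09%), the median was 0.048 and H2-Eb1 (-0.21), H2-DMa (-0.86), H2-DMb1 (-1.08), H2-DMb2 (-1.76) and Ciita (-1.74) reversed. Ciita was at -0.028 without both HD mice numbered 3 and ranged from -0.029 to 0.60 with each mouse left out. Between treated and untreated mice the number called was 1 with the covariate, where 194 of 19463 tested genes were called in either direction. H2-Ob reversed there, at -0.22, and was under 2-fold, so that it was not the gene called. The number called was 2 without both HD mice numbered 3 (0.656% of all tested genes higher). With each mouse left out it was 0 to 6, the 6 without untreated mouse 3 (0.928% higher). H2-Ob was at -0.20 in the libraries without Y-linked transcripts. Without both HD mice numbered 3 the median was 0.79, and H2-Aa (0.77), H2-Ab1 (0.67), H2-Eb1 (0.85), H2-DMa (0.35), H2-DMb1 (0.61), H2-DMb2 (1.45), H2-Oa (0.80) and Cd74 (0.82) reversed. With each mouse left out the median ranged from -1.40 to 1.63, H2-Aa from -2.17 to 1.84, H2-Ab1 from -2.30 to 1.82, H2-Eb1 from -2.33 to 1.97, H2-DMa from -0.58 to 0.56, H2-DMb1 from -0.94 to 1.09, H2-DMb2 from -0.98 to 1.61, H2-Oa from -1.31 to 1.66, H2-Ob from -0.22 to 1.42, Cd74 from -2.12 to 1.89 and Ciita from -1.55 to 0.32. The covariate fit against WT rests on untreated mouse 1, the one HD mouse with Y-linked transcripts, and says nothing about the other HD mice. The filter of 10 counts lowered the number called by testing fewer members. The cause of the other changes was not tested. The correlation of deviations between same-numbered mice ranged from -0.08 to 0.24 over the 9 pairs. For treated and untreated mice numbered 1, 2 and 3 it was 0.19, -0.003 and 0.24. No correlation between differently numbered mice is given here for reference, so that these values cannot show whether replicate numbers pair the mice. Untreated mouse 3 was the highest and treated mouse 3 the next highest HD mouse for all 10 members. Whether same-numbered mice were processed together was not tested. With the replicate number as a block, 6 members were called between untreated and WT mice (5.45% of all tested genes higher) and 6 between treated and WT mice (4.05%). In that fit 0 were called between treated and untreated mice, against 163 of 19463 tested genes in either direction. There H2-DMb2 (0.070) and H2-Oa (0.015) reversed and the median was -0.12. Between treated and untreated mice the standard errors of Cd74 and the A and E chains were 1.14 to 1.20 on the log2 scale, so that differences of this size could not be told from the spread between mice.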
